A study of Mus musculus with 6 samples.

Results

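The genes described here are 10 transcripts of leukocyte adhesion, namely Itgal, Itgb2, Icam1, Icam2, Itga4, Itgb1, Itgb7, Itgb3, Itgav and Selplg. They were chosen by name as the integrin subunits, ICAM ligands and selectin ligand through which T cells adhere, and all 10 were found among the 53379 genes listed in each library. RNA-seq was done on splenic T follicular helper cells (Tfh), the CD4+ T cells that help B cells in germinal centers, from 3 CTL and 3 Prdm1-CKO female mice aged 6 to 8 weeks. All mice were immunized with NP-CGG in CFA and killed on day 7, and live TCRβ+CD4+CXCR5+PD1+ cells were sorted from each spleen into 1 library per mouse. Prdm1-CKO mice were Prdm1 fl/fl; CD11c-CRE+, so that Blimp-1 was deleted in cells with high CD11c, chiefly dendritic cells, and the Tfh cells themselves were not the target. CTL mice were Prdm1 fl/fl; CD11c-CRE- or Prdm1+/+; CD11c-CRE+, and which CTL mouse carried which genotype is not stated. The sort had no step against FOXP3+ cells, so follicular regulatory T cells may be among the sorted cells. The comparison asks whether Tfh cells that developed beside Blimp-1-deficient dendritic cells carried a different set of adhesion transcripts.

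Integrins are heterodimers of an α and a β subunit that bind ligands on other cells or in the matrix, and they hold Tfh cells to B cells and steer their traffic. LFA-1, made of αL (Itgal) and β2 (Itgb2), binds ICAM-1 and ICAM-2 and helps to keep T cell and B cell in contact. The α4 subunit (Itga4) pairs with β1 (Itgb1) into VLA-4, a receptor for VCAM-1 and fibronectin, or with β7 (Itgb7) into the gut-homing receptor for MAdCAM-1, while αV (Itgav) with β3 (Itgb3) binds vitronectin and osteopontin, and PSGL-1 (Selplg) is the mucin that selectins bind.

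Total counts per library lay between 7147601 and 16973392, and 3 counts, taken as the floor of detection, stood for 0.177 to 0.420 CPM (counts scaled to library size) before TMM scaling, which covers counting error only. All other CPM values below include the TMM factors. Genes that define T cells and Tfh were present in every mouse, with Cd3e, a chain of the T cell receptor complex, at 542 to 786 CPM and Cxcr5, the follicular homing receptor, at 254 to 477 CPM. CTL replicate 2 stood apart from the other mice, with a mean correlation of 0.875 across genes against 0.923 to 0.944, so values without it are also given for the 10 members and for many of the other named genes. The counts of Prdm1 in these Tfh cells do not check the genotype, since the deletion is in other cells. P values below come from edgeR's quasi-likelihood test over 14555 genes with Benjamini-Hochberg adjustment unless another test is named, all are two-sided, and fold changes are Prdm1-CKO against CTL.

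Promoter sequences are shown for the α4 subunit, its β partners and ICAM-1, the transcripts on which the comparisons below turn. They are RefSeq sequences of GRCm38.p6, each from 250 bases before the RefSeq start of the gene to 50 after it, written 5′ to 3′ on the strand of the gene, and 5 of the 10 genes had an entry. Capitals mark a CACCC box (CCACCC, the core of sites for Krüppel-like factors), an ETS core (AGGAAG) or an NF-kB site (GGAAATTCC), searched on both strands. The RefSeq start is also the GENCODE start of Itga4, Itgb1 and Itgav, while that of Icam1 lies 45 bases upstream of the GENCODE start used for its gene coordinates below.
Itga4, chr2:79255176-79255475, plus strand: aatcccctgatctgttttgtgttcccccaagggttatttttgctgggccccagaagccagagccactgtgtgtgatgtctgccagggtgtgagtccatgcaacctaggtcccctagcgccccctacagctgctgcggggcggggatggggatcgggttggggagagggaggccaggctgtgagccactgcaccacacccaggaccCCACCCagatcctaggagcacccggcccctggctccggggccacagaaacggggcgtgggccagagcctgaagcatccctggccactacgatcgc
Itgb1, chr8:128685404-128685703, plus strand: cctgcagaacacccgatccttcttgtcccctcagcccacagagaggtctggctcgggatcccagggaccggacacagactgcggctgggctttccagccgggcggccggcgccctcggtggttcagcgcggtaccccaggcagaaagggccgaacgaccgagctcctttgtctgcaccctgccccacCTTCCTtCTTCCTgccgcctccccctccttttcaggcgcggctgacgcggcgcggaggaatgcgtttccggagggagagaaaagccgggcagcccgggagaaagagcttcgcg
Itgb7, chr15:102231886-102232185, minus strand: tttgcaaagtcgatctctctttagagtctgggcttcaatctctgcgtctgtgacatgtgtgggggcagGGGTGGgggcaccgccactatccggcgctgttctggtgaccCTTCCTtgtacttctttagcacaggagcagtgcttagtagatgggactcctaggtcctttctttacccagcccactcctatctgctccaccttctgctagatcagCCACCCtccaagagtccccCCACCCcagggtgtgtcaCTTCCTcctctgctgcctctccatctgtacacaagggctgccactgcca
Icam1, chr9:21015690-21015989, plus strand: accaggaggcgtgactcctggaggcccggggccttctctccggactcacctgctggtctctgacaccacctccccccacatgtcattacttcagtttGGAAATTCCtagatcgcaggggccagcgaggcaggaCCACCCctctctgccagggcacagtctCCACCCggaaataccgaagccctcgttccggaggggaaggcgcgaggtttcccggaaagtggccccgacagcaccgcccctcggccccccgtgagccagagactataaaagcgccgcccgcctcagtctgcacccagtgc

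The Itga4 window held 1 CACCC box, 45 bases before the start, and neither other motif. The Itgb1 window held 2 ETS cores, at 63 and 56 bases before the start, and no CACCC box. The Itgb7 window held 3 CACCC boxes and 2 ETS cores, and the Icam1 window held 2 CACCC boxes and 1 NF-kB site, 153 bases before the RefSeq start. A CACCC box was found in 31.5% of 32851 promoters of this length, an ETS core in 35.4% and the NF-kB letters in 0.317%. The windows of Itga4 and Itgb7 thus shared the CACCC box and those of Itgb1 and Itgb7 the ETS core, and the motifs were not searched outside these windows. In the Itgav window, which is not printed, 1 ETS core lay 8 bases before the start.

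The β2 and β7 subunits, Itgb2 and Itgb7, were the most abundant of these transcripts. Per length, as TPM from exon lengths, the order of the mean over 6 mice was Itgb2 at 1041 ± 147 (SD, n = 6), Itgb7 at 968 ± 147, Itgb1 at 517 ± 148, Selplg at 369 ± 31.4, Itgal at 353 ± 97.7, Icam2 at 104.5 ± 18.0, Itga4 at 87.2 ± 24.6, Icam1 at 61.6 ± 12.0, Itgb3 at 15.7 ± 6.37 and Itgav at 14.7 ± 5.70. The ranges over the mice separated Itgb7 from Itgb1, Itgal from Icam2 and Icam1 from Itgb3, which split the genes into 4 tiers. Itgb2 and Itgb7 were not separated, since Itgb2 was the higher in 3 of 6 mice, and neither were Itgb1, Selplg and Itgal. Icam2 exceeded Itga4 in 5 of 6 mice, and Itga4 exceeded Icam1 in 6 of 6. Itgb3 and Itgav, the subunits of the vitronectin receptor, were not separated from each other and were the lowest of the 10 in every mouse. Both α subunits of the leading receptors were thus below their β partners per length, Itga4 below Itgb1 and Itgb7 and Itgal below Itgb2, in all 6 mice.

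**Figure D1:**
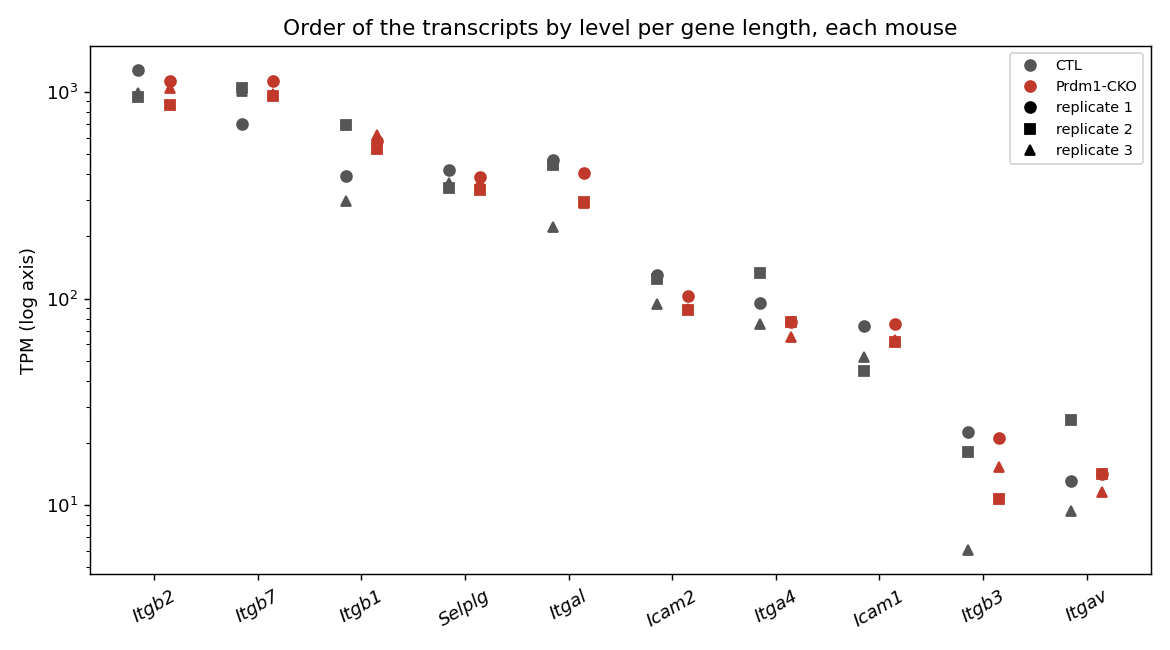
TPM of the 10 transcripts in each mouse on a log axis, in the order of their mean over 6 mice, with CTL mice in grey, Prdm1-CKO mice in red and a marker shape for each replicate. Itgb2 and Itgb7 lie near 1000 TPM, and Itgb3 and Itgav are the lowest in every mouse.

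None of the 10 transcripts reached an adjusted p under 0.05, and neither did any of the 14555 genes tested in edgeR (0.0%), while DESeq2 called 9 genes, none of them a member. At an unadjusted p under 0.05 edgeR called 1 of the 10, Itga4, where 342 of all genes (2.35%) were called. The fold changes on the log2 scale ran from -0.47 for Itga4 to 0.33 for Itgb1, with 4 genes above 0 and 6 below, and their median was -0.07 beside 0.01 over all genes tested. The edgeR adjusted p was 0.996 for every member except Itgb3, at 0.998. The mice of the 2 groups did not overlap for Itga4 and Icam2, in both of which every Prdm1-CKO mouse was below every CTL mouse, a pattern that 3.86% of all genes showed. No member had every Prdm1-CKO mouse above every CTL mouse, which 4.56% of all genes did. CTL mice varied more among themselves than Prdm1-CKO mice in all 10 transcripts, with coefficients of variation from 7.62% to 50.2% against 2.07% to 27.4%. The coefficient was also larger in CTL mice for 75.7% of 14551 genes tested. In bulk samples like these, fewer cells of a type and less RNA per cell cannot be told apart.

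**Figure D2:**
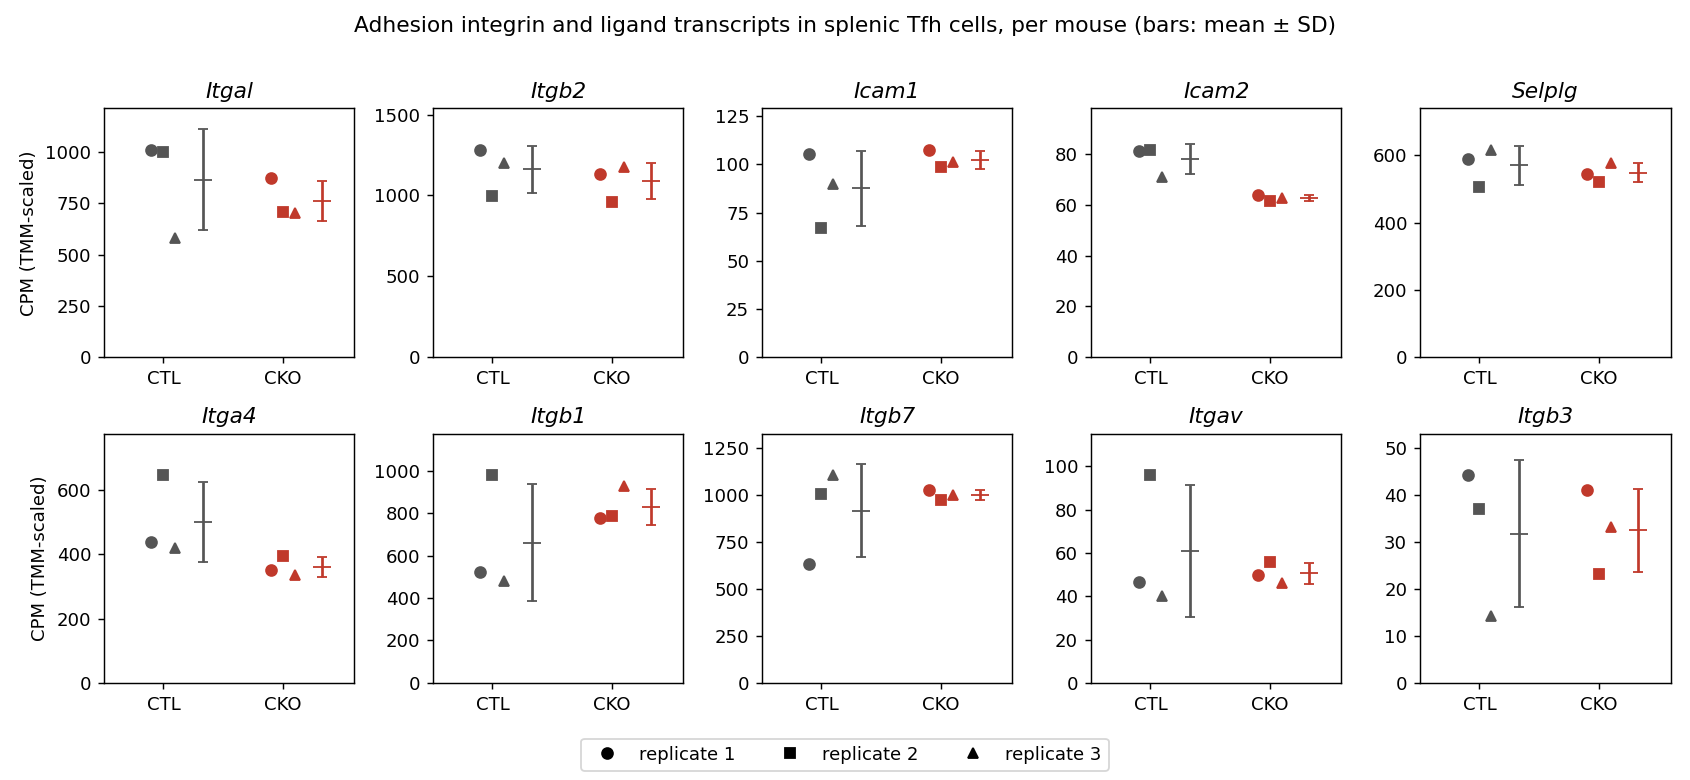
CPM with TMM factors of each transcript, 1 point per mouse with a shape for each replicate, and the mean ± SD of 3 mice beside the points, for CTL (grey) and Prdm1-CKO (red, CKO). Each axis starts at 0; only Icam2 and Itga4 have no overlap between the groups, and CTL replicate 2 is the highest mouse for Itga4, Itgb1 and Itgav.

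Among the α4 integrins, the transcript of the shared α subunit was lower in Prdm1-CKO mice at an unadjusted p and those of its β partners were not. Itga4, which lies on chromosome 2 of GRCm38 from 79255426 to 79333123, was at 437.6, 646.2 and 420.1 CPM in CTL replicates 1 to 3 and at 352.0, 396.5 and 335.5 CPM in Prdm1-CKO replicates 1 to 3. Every Prdm1-CKO mouse was below the lowest CTL mouse, and CTL replicate 2 was far above the other CTL mice. The means were 501 ± 126 CPM in CTL and 361 ± 31.6 CPM in Prdm1-CKO mice (SD, n = 3 each), a log2 fold change of -0.47 (standard error 0.19, edgeR unadjusted p = 0.0370, adjusted p = 0.996). Leaving out each mouse in turn kept its sign, from -0.58 to -0.26, and over all alternatives its adjusted p lay between 0.689 and 1.0. Without CTL replicate 2 the value was -0.26 (edgeR unadjusted p = 0.103, adjusted p = 0.999), and the unadjusted call was also lost without Prdm1-CKO replicate 1 (-0.45, edgeR unadjusted p = 0.0979) and without Prdm1-CKO replicate 3 (-0.42, edgeR unadjusted p = 0.117). Cerkl, a gene on the opposite strand, covers 8.04% of the exon bases of Itga4 and had 403 counts in all beside its 29728.

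Itgb1, on chromosome 8 from 128685654 to 128733200, encodes the β subunit that turns α4 into VLA-4. It was at 524, 978 and 480 CPM in CTL and at 777, 787 and 930 CPM in Prdm1-CKO mice. The Prdm1-CKO mice lay above CTL replicates 1 and 3 and below CTL replicate 2. With all mice the log2 fold change was 0.33 (standard error 0.26, 95% interval from -0.28 to 0.94, edgeR unadjusted p = 0.244, adjusted p = 0.996). The value rested on the choice of CTL mice, at 0.18 without CTL replicate 1 and 0.16 without CTL replicate 3 (edgeR unadjusted p = 0.541 and 0.560). Without CTL replicate 2 the CTL mean fell from 661 to 502 CPM beside 831 CPM in Prdm1-CKO mice, and the log2 fold change was 0.72 (standard error 0.14, edgeR unadjusted p = 0.00102, adjusted p = 0.999). In that fit edgeR called 1 of the 10 transcripts, Itgb1, at an unadjusted p under 0.05, where 2.31% of 15705 genes were called. With voom quality weights, which gave CTL replicate 2 the least weight, its log2 fold change was 0.61 (limma unadjusted p = 0.00682).

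Itgb7, on chromosome 15, encodes the β subunit of the gut-homing α4 integrin. It was at 634, 1007 and 1103 CPM in CTL and at 1027, 971 and 1001 CPM in Prdm1-CKO mice. The Prdm1-CKO mice lay within the CTL range, and CTL replicate 1 was far below the rest. Its difference on the log2 scale was 0.13 (standard error 0.20, 95% interval from -0.33 to 0.59, edgeR unadjusted p = 0.539), and it turned to -0.09 without CTL replicate 1 and was 0.19 without CTL replicate 2.

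The balance of α4 against its β partners was also compared within each mouse, which does not depend on how libraries are scaled to one another. The TPM of Itga4 divided by the sum of Itgb1 and Itgb7 was 0.0876, 0.0766 and 0.0583 in CTL and 0.0449, 0.0522 and 0.0407 in Prdm1-CKO mice. Every Prdm1-CKO mouse was below every CTL mouse, by 0.68 on the log2 scale between the geometric means of 0.0731 and 0.0457 (exact permutation p = 0.1, the smallest that 3 mice against 3 allow, and 0.25 after adjustment over 5 ratios). The difference lay between -0.84 and -0.55 with each mouse left out in turn and was -0.65 without CTL replicate 2. The ratio of Itga4 to Itgb1 alone, chosen after the values were seen, was 0.244, 0.193 and 0.255 in CTL and 0.132, 0.147 and 0.105 in Prdm1-CKO mice. It too separated the groups, with geometric means of 0.229 and 0.127 and a log2 difference of -0.85 (exact permutation p = 0.1), which lay between -0.97 and -0.71 with 1 mouse left out. CTL replicate 2, which is highest for both Itga4 and Itgb1 in CPM, fell below the other CTL mice in this ratio and still above the Prdm1-CKO mice. The ratio of Itga4 to Itgb7, also chosen after the values were seen, overlapped between the groups, with CTL replicate 3 at 0.0755 under Prdm1-CKO replicate 2 at 0.0809 (log2 difference -0.62, exact permutation p = 0.2). The ratio of Itgb1 to Itgb7 was 0.561, 0.659 and 0.295 in CTL and 0.513, 0.550 and 0.630 in Prdm1-CKO mice, and the groups overlapped (log2 difference 0.23, exact permutation p = 0.9).

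**Figure D3:**
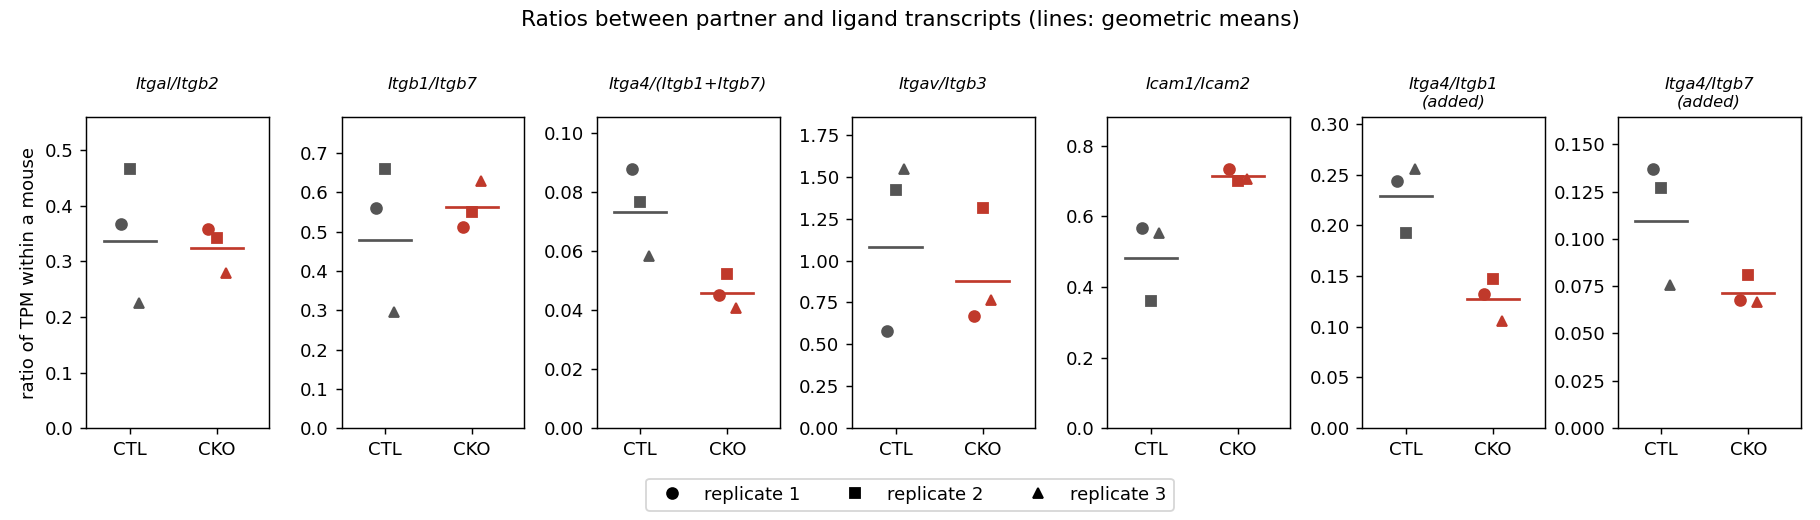
Ratios of TPM within a mouse for integrin partners and for the ICAM ligands, with 1 point per mouse and a line at the geometric mean of 3 mice, for CTL (grey) and Prdm1-CKO (red, CKO), each axis starting at 0. Itga4 against its β partners, Itga4 against Itgb1 and Icam1 against Icam2 have no overlap between the groups; the 2 ratios marked as added were chosen after the values were seen.

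LFA-1 transcripts did not separate the groups. Itgal, on chromosome 7 from 127296260 to 127335138, was at 1011, 1002 and 581 CPM in CTL and at 874, 708 and 703 CPM in Prdm1-CKO mice. Its lowest mouse was CTL replicate 3, and the Prdm1-CKO mice lay between it and the other CTL mice (log2 fold change -0.18, standard error 0.22, 95% interval from -0.69 to 0.33, edgeR unadjusted p = 0.433), and it depended on the CTL mice. Its log2 fold change was -0.06 without CTL replicate 1, -0.07 without CTL replicate 2 (edgeR unadjusted p = 0.797 and 0.770) and -0.39 without CTL replicate 3 (edgeR unadjusted p = 0.0294). Itgb2, the β subunit of LFA-1, lies on chromosome 10 from 77530252 to 77565708 and was at 1282, 999 and 1202 CPM in CTL and at 1133, 961 and 1174 CPM in Prdm1-CKO mice. Its groups overlapped, and its interval was among the narrowest of the 10 (log2 fold change -0.09, standard error 0.14, 95% interval from -0.42 to 0.24, edgeR unadjusted p = 0.542), with -0.20 without CTL replicate 2. The ratio of Itgal to Itgb2 had geometric means of 0.337 in CTL and 0.324 in Prdm1-CKO mice (exact permutation p = 0.8), and its direction changed when CTL replicate 1, CTL replicate 2 or Prdm1-CKO replicate 3 was left out.

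The transcripts of the LFA-1 ligands differed in direction. Icam2, on chromosome 11 from 106377656 to 106388075, encodes a ligand present on resting leukocytes and was at 81.2, 81.7 and 71.2 CPM in CTL and at 64.0, 61.4 and 62.7 CPM in Prdm1-CKO mice. All Prdm1-CKO mice lay within 3 CPM of each other and below all CTL mice. Its means were 78.0 ± 5.95 and 62.7 ± 1.30 CPM (SD, n = 3 each), a log2 fold change of -0.32 (standard error 0.16, 95% interval from -0.68 to 0.04, edgeR unadjusted p = 0.0770, adjusted p = 0.996). With each mouse left out in turn the value lay between -0.37 and -0.29, the latter without CTL replicate 2, a narrow range beside those of the other members. Icam1, on chromosome 9 from 21015985 to 21028817, encodes the ligand that cytokines induce and was at 105.6, 67.2 and 90.0 CPM in CTL and at 107.6, 98.6 and 101.1 CPM in Prdm1-CKO mice. CTL replicate 2 was the lowest mouse, and CTL replicate 1 lay within the range of the Prdm1-CKO mice (log2 fold change 0.23, standard error 0.19, edgeR unadjusted p = 0.276), which left 0.06 without CTL replicate 2.

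The ratio of Icam1 to Icam2 within a mouse was 0.568, 0.359 and 0.552 in CTL and 0.734, 0.701 and 0.705 in Prdm1-CKO mice. Every Prdm1-CKO mouse was above every CTL mouse, by 0.56 on the log2 scale between geometric means of 0.483 and 0.713 (exact permutation p = 0.1, 0.25 after adjustment over 5 ratios). The difference was 0.35 without CTL replicate 2, its smallest value with 1 mouse left out, and 0.68 at most. B cells and macrophages also make ICAM-1. The 10 B cell markers summed to 560 to 1661 CPM in CTL and 1442 to 2127 CPM in Prdm1-CKO mice, with 10 of 10 fold changes above 0 and none at an unadjusted p under 0.05 in edgeR. Most of that sum was Cd74, at 453 to 1480 CPM in CTL and 1202 to 1905 CPM in Prdm1-CKO mice. Of the other markers, Cd79b and Pax5 had every Prdm1-CKO mouse above every CTL mouse. The 10 red pulp macrophage markers summed to 450 to 1432 and 1019 to 1434 CPM, with 9 of 9 tested above 0. At an unadjusted p under 0.05 edgeR called 2, Cd5l and C1qc, both with every Prdm1-CKO mouse above every CTL mouse. The call of C1qc was lost without CTL replicate 2, where its log2 fold change went from 1.49 to 1.09 (edgeR unadjusted p = 0.0570). Both sums overlapped between the groups. CTL replicate 2 was the lowest mouse in both sums, and the part of these cells in the Icam1 values was not tested.

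The αV and β3 transcripts were low and varied most among CTL mice. Itgav, on chromosome 2 from 83724397 to 83806916, was at 46.6, 95.8 and 40.0 CPM in CTL and at 49.8, 55.7 and 46.2 CPM in Prdm1-CKO mice. CTL replicate 2 was the highest of all 6, and the Prdm1-CKO mice lay near the other CTL mice (log2 fold change -0.27, standard error 0.33, edgeR unadjusted p = 0.436), with a value of 0.21 without CTL replicate 2. Itgb3, on chromosome 11 from 104608000 to 104670476, was at 44.2, 37.1 and 14.2 CPM in CTL and at 41.0, 23.3 and 33.1 CPM in Prdm1-CKO mice. The groups overlapped throughout, and the 95% interval of its log2 fold change of 0.03 ran from -0.92 to 0.97, the widest of the 10 (edgeR adjusted p = 0.998), and the value without CTL replicate 2 was 0.14. Platelets carry β3 with αIIb, and the 10 platelet and megakaryocyte markers summed to 4.74 to 26.4 CPM in CTL and 7.16 to 9.25 CPM in Prdm1-CKO mice. Most of the sum was Itga2b, which encodes αIIb, at 2.66 to 26.4 CPM. The next highest were Gp1ba, with at most 2.07 CPM, and Gp5, while Pf4 and Ppbp had at most 0.411 CPM and Gp6 had 0 in every mouse. Gp5, which was not tested in the main fit, had 2, 0 and 0 counts in CTL and 12, 2 and 16 in Prdm1-CKO mice. CTL replicate 1 and Prdm1-CKO replicate 2 both had 2 counts, under the floor of 3, so its groups were not separated. The part of platelets in the Itgb3 values was not tested. The ratio of Itgav to Itgb3 overlapped between the groups (geometric means 1.08 and 0.875, exact permutation p = 0.7).

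Selplg, on chromosome 5 from 113818536 to 113832644, encodes PSGL-1, whose surface level falls as T cells become Tfh. It was at 589, 506 and 617 CPM in CTL and at 546, 522 and 578 CPM in Prdm1-CKO mice. All Prdm1-CKO mice lay within the CTL range, and the 95% interval of its log2 fold change of -0.06, from -0.36 to 0.25, was the narrowest of the 10 (edgeR unadjusted p = 0.681), and the value without CTL replicate 2 was -0.15.

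**Figure D4:**
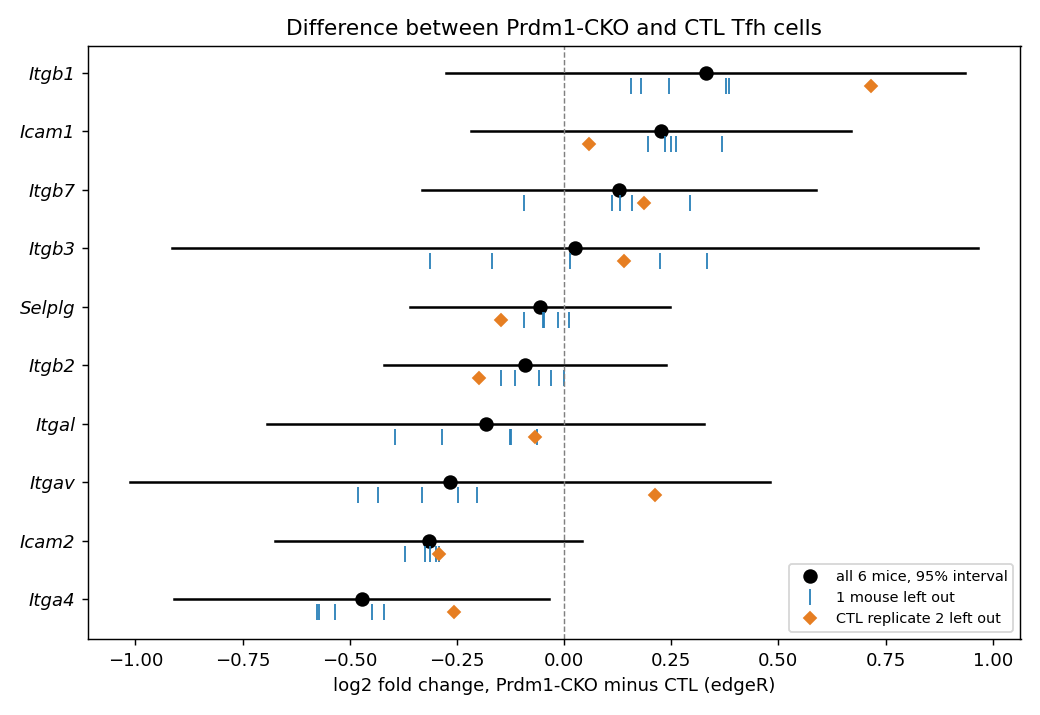
Log2 fold change of each transcript in Prdm1-CKO against CTL mice from edgeR, with its 95% interval (black), the values with each other mouse left out (blue ticks) and the value without CTL replicate 2 (orange diamond). The interval of Itga4 alone lies on 1 side of 0, and leaving out CTL replicate 2 moves Itgb1 to 0.72 and Itgav to 0.21.

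Other subunits and ligands, and genes that activate, restrain, anchor or modify these receptors, were described from 7 lists of 78 genes, of which 67 were tested. In edgeR 1 of the 67 was called at an unadjusted p under 0.05 (1.49%, beside 2.35% of all genes), 34 lay above 0 and 33 below, and the median log2 fold change was 0.00. Prdm1-CKO mice were all above CTL mice in 2 of the 67 and all below in 3. Over all genes tested, 4.56% were all above and 3.86% all below. The called gene was Selp, the selectin that binds PSGL-1, at 0.822, 5.57 and 6.36 CPM in CTL and 0.789, 0 and 0.137 CPM in Prdm1-CKO mice (log2 fold change -3.62, edgeR unadjusted p = 0.0162, adjusted p = 0.996). Its counts were 12, 47 and 43 in CTL and 14, 0 and 2 in Prdm1-CKO mice, and CTL replicate 1 and Prdm1-CKO replicate 1 were close to each other. All CTL mice were above all Prdm1-CKO mice in CPM, so Selp may have passed the expression filter through the CTL mice alone. No conclusion is drawn from its p and fold change for that reason.

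Of the genes for inside-out activation, which switch integrins to high affinity, 11 of 16 lay below 0, with a median of -0.13 that stayed between -0.15 and -0.09 with each mouse left out. None of the 16 was called with all mice. Sh2d2a, an adaptor of T cell signaling with the smallest p of that list, was at 372, 314 and 361 CPM in CTL and 303, 294 and 298 CPM in Prdm1-CKO mice, with no overlap (log2 fold change -0.23, edgeR unadjusted p = 0.122). Without CTL replicate 2 it was called at an unadjusted p, with a log2 fold change of -0.31 (edgeR unadjusted p = 0.0472). Rassf5, the RAP1 effector that acts on LFA-1 and the most abundant of the list per length, had a log2 fold change of 0.07, and of -0.05 without CTL replicate 2. Among the 8 genes that restrain integrins, 6 lay above 0 and none was called. Their median of 0.12 ran from 0.03 to 0.18 with each mouse left out and was 0.00 with voom quality weights. Itgb1bp1, whose product binds the tail of β1, was at 60.4, 55.1 and 55.0 CPM in CTL and at 65.3, 61.7 and 68.5 CPM in Prdm1-CKO mice, with no overlap (log2 fold change 0.20, edgeR unadjusted p = 0.253). Its neighbours Cpsf3 and Asap2 share 5.54% and 11.4% of its exon bases on the other strand, and Cpsf3 had 14536 counts in all beside its 4483. Rasa3, a GTPase-activating protein for RAP1 and the most abundant of this list per length, had a log2 fold change of 0.18.

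Of the other α subunits 8 of 13 tested lay above 0 and none was called, with Itga2b at -1.07 (smallest p, edgeR unadjusted p = 0.153) and Itgax, which encodes CD11c, at 0.40. Without CTL replicate 2, the mouse with the most Itga2b, its value was -0.24 (edgeR unadjusted p = 0.683). The median over the other α subunits also turned, from 0.11 with all mice to -0.15 without CTL replicate 2. Among the other β subunits, Itgb8, the partner of αV that activates TGF-β, was at 21.6, 21.9 and 20.6 CPM in CTL and at 18.3, 20.1 and 13.6 CPM in Prdm1-CKO mice, without overlap (log2 fold change -0.30, edgeR unadjusted p = 0.255). Itgb5 was at 0 in CTL replicate 2 and had a log2 fold change of 1.14 (edgeR unadjusted p = 0.308), which was 0.55 without that mouse. Of the other ligands, F11r, which encodes JAM-A, an LFA-1 ligand, was at 2.95, 1.66 and 1.48 CPM in CTL and at 5.92, 4.07 and 4.04 CPM in Prdm1-CKO mice, with no overlap (log2 fold change 1.19, edgeR unadjusted p = 0.0529). It is named after its values were seen. In the list of actin linkage 7 of 11 lay below 0 (Actn1, an actin crosslinker, -0.51; Parvg, a parvin of leukocytes, 0.08), and without CTL replicate 2 these were -0.09 and -0.035. In the list of enzymes that glycosylate and sulfate PSGL-1, 7 of 10 lay above 0 (Fut4, a fucosyltransferase, 0.88; Tpst2, a tyrosine sulfotransferase, 0.01, and -0.12 without CTL replicate 2), and neither list had a called gene.

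**Figure D5:**
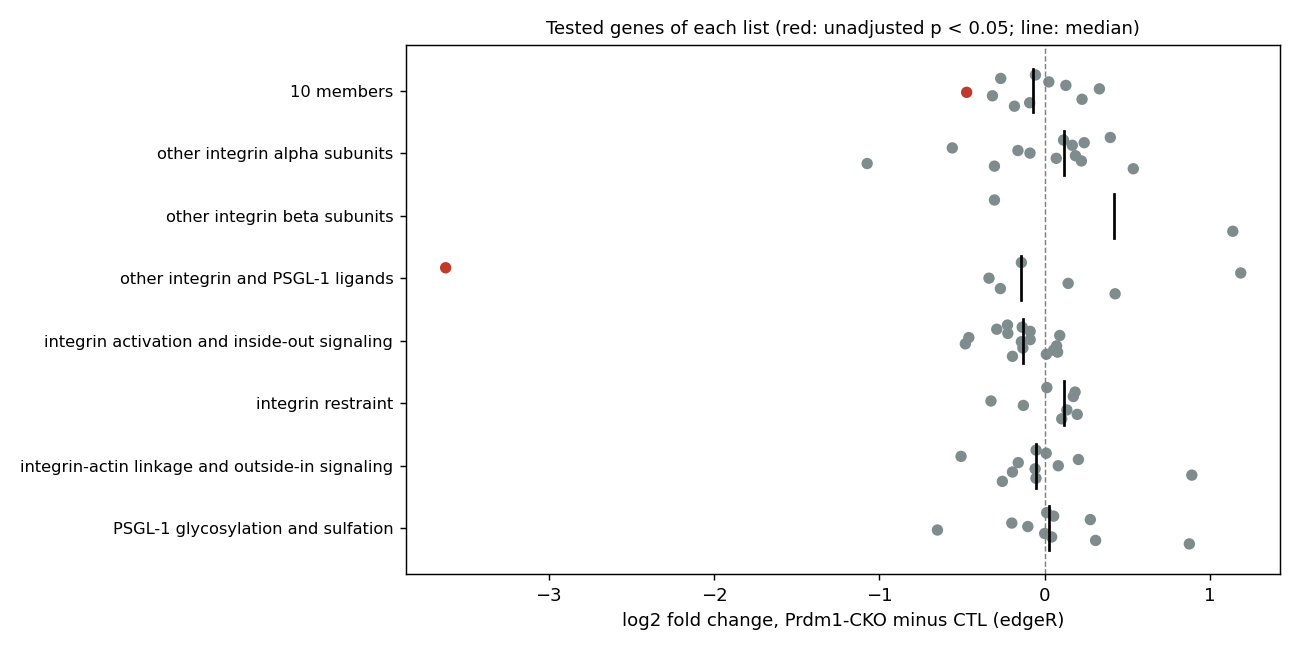
Log2 fold change in Prdm1-CKO against CTL mice from edgeR for the tested genes of each list, 1 point per gene, with the median of the list as a line and genes at an unadjusted p under 0.05 in red. Apart from Itga4 and Selp no point is red, and the medians lie on both sides of 0.

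The 5 genes whose profile over the 6 mice was most like that of Itga4, by the root mean square difference of centred log2 CPM, were Nisch (0.041), Asxl2 (0.053), Aak1 (0.063), Cds2 (0.065) and Akap11 (0.068), where the median over all genes tested was 0.478. Nisch, which encodes nischarin, a protein that binds α5 integrin, was at 276, 401 and 273 CPM in CTL and at 236, 248 and 207 CPM in Prdm1-CKO mice. As for Itga4, CTL replicate 2 was the highest mouse and the groups did not overlap (log2 fold change -0.46, edgeR unadjusted p = 0.0380, adjusted p = 0.996). That call was lost when CTL replicate 2 was left out, at a log2 fold change of -0.26 (edgeR unadjusted p = 0.110, adjusted p = 0.999). The other 4 genes overlapped between the groups, and their fold changes of -0.46 to -0.39 shrank to between -0.21 and -0.19 without that mouse. These profiles share the libraries and the same high mouse, so the likeness is a description over 6 samples.

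Basophils and mast cells carry α4 integrins, and their marker genes are given beside Itga4. The sum was 88.6, 104.4 and 33.6 CPM in CTL and 35.2, 36.7 and 38.9 CPM in Prdm1-CKO mice, and 4 of 5 genes were below 0, 3 of them at an unadjusted p under 0.05 in edgeR. These were Fcer1a, Cd200r3 and Ms4a2, and the call of Ms4a2 was lost without CTL replicate 2 (edgeR unadjusted p = 0.135). CTL replicate 3 had the lowest sum of all mice, at 33.6 CPM, with Itga4 at 420.1 CPM, above every Prdm1-CKO mouse. In that mouse Ms4a2, Cpa3 and Mcpt8 were below every Prdm1-CKO mouse, at 5.03, 3.26 and 0.592 CPM. Fcer1a and Cd200r3 were above every Prdm1-CKO mouse there, as Itga4 was, at 12.1 and 12.6 CPM against at most 3.97 and 10.4 CPM. The highest value in any mouse was 41.1 CPM for Ms4a2, in CTL replicate 2, and 25.4, 20.4, 16.5 and 12.1 CPM for Cd200r3, Cpa3, Mcpt8 and Fcer1a. Mcpt8, a basophil protease, was the marker above 0, at a log2 fold change of 0.24 (edgeR unadjusted p = 0.775), and 0.11 without CTL replicate 2. Cd4, a marker of the sorted cells, was also lower in Prdm1-CKO mice at an unadjusted p (log2 fold change -0.29, edgeR unadjusted p = 0.0465). Every Prdm1-CKO mouse was below every CTL mouse for Cd4. That call too was lost without CTL replicate 2 (-0.25, edgeR unadjusted p = 0.0951), but of the 13 Tfh and T cell markers 6 lay above 0 and 7 below, with a median of -0.02, and Cd4 was the 1 gene called. Their sums overlapped between the groups, at 3714 to 4790 CPM in CTL and 3768 to 3986 CPM in Prdm1-CKO mice. Of the 7 CD8 and NK cell markers 3 lay above 0 and 4 below, with Gzma and Cd8a called lower (edgeR unadjusted p = 0.00725 and 0.0270). Without CTL replicate 2 Gzma was still called (edgeR unadjusted p = 0.0152) and Cd8a was not (log2 fold change -2.02 to -1.29). Counts of Cd8a were 18, 42 and 14 in CTL and 14, 8 and 6 in Prdm1-CKO mice. Like Selp, Cd8a may have passed the expression filter through the CTL mice alone. No conclusion is drawn from its p and fold change for that reason. All 5 plasma cell markers lay above 0, with Jchain called (edgeR unadjusted p = 0.0377), a call lost without CTL replicate 2 (log2 fold change 0.60 to 0.42). Sdc1, with 0 counts in that mouse, turned from 0.03 to -0.56 without it. Sums of both lists overlapped. The part of other cells in the Itga4 values was not tested.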

How the data were processed

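Each of 6 mice, 3 per group, gave 1 Smart-seq2 library of sorted splenic Tfh. The authors aligned paired reads to GRCm38 (STAR 2.4.2a, per the submitters' processing notes) and deposited raw counts per gene from featureCounts, 1 table per mouse and not normalized. Strandedness and the handling of multiply aligned reads are not given in the sources used here, so reads of antisense genes that overlap a member (Cerkl for Itga4, Gm47079 for Icam1, Gm13684 for Itgav) cannot be told apart from its own. The sample titles call the second group a knockout and the genotype field a knockdown.

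Counts were tested with edgeR 4.0.16 in R 4.3.3 (TMM, filterByExpr, quasi-likelihood F test, no covariate), with Benjamini-Hochberg adjustment over 14555 genes. Log2 CPM used a prior count of 2. Symbols, coordinates and exon-union lengths for TPM came from GENCODE M21, which holds 53274 of 53379 identifiers; Itgb7 differs in version, so its GENCODE coordinates are not given. Ratios within a mouse were compared by exact permutation. Members, lists and tests were chosen with earlier results of these data known. Named genes were the 10 members; in each list, genes at an unadjusted p under 0.05, otherwise those with the smallest p and the highest TPM; the 5 genes closest to Itga4; and defining markers. The fit was tested on simulated data. Alternatives were DESeq2 1.42.0, DESeq2 size factors in edgeR, a minimum of 10 counts per mouse, all genes unfiltered, limma 3.58.1 voom with quality weights, a replicate block, longest transcripts for TPM, the most abundant gene left out of TPM, and each mouse left out. The ratios of Itga4 to each β partner, the marker sums beside members and the emphasis on CTL replicate 2 were chosen after seeing the data.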

Additional observations from a re-analysis of the deposited data

How the results depend on the processing

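No member reached an adjusted p under 0.05 under any of 12 alternatives, and of 120 values 115 kept the direction and 5, all with 1 mouse left out, did not. The log2 fold changes with each mouse left out ran from -0.0928 to 0.29 for Itgb7, from -0.31 to 0.33 for Itgb3, from -0.48 to 0.21 for Itgav and from -0.15 to 0.0105 for Selplg, and ratio differences from -0.35 to 0.18 for Itgal to Itgb2 and from -0.11 to 0.47 for Itgb1 to Itgb7. Of all genes tested, edgeR put 135 higher and 207 lower with an unadjusted p below 0.05, with 264 and 417 in DESeq2, 426 and 510 without the filter, 268 and 203 with voom quality weights, and from 58 to 580 higher and from 107 to 617 lower with each mouse left out. The balance turned to more genes higher than lower with voom weights, when CTL replicate 2 was left out (225 against 138) and when CTL replicate 1 was (580 against 477). At an adjusted p under 0.05 DESeq2 called 9 genes and edgeR without the filter 1, and the cause was not tested. With the longest transcript as length the mean TPM was 835 for Itgb2, 82.7 for Icam1, 782 for Itgb7 and 532 for Selplg, which put Selplg above Itgb1 and Itgav above Itgb3. Selplg was at 411 TPM without the most abundant gene in the total. Correlations of deviations between mice of the same replicate number were 0.158, 0.0282 and 0.016 for numbers 1 to 3. Between mice of different numbers they ran from -0.131 to 0.0829. These values do not settle whether the numbers pair the mice. With the replicate block the log2 fold change of Itga4 was -0.45 (unadjusted p = 0.0214 in edgeR) and that of Itgb1 0.40. With 3 mice per group, differences within the intervals given could not be shown.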

Other observations

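Adhesion genes that myeloid cells also make are given here as values, and all but Itgax were named after their values were seen. Itgam, the α subunit of MAC-1, was at 30.1, 9.60 and 10.7 CPM in CTL and at 21.1, 16.1 and 17.7 CPM in Prdm1-CKO mice, and 68.7% of its exon bases are shared with Gm49368 on the same strand. Itgad, an α subunit of splenic macrophages, was at 28.6, 7.46 and 13.2 CPM in CTL and at 19.1, 10.3 and 26.2 CPM in Prdm1-CKO mice. Vcam1, the VLA-4 ligand that red pulp macrophages carry, was at 145, 52.1 and 64.5 CPM in CTL and at 121, 96.5 and 135 CPM in Prdm1-CKO mice. These 3 were lowest in CTL replicate 2, where the red pulp macrophage marker sum was also lowest (450 CPM), but Itgax, at 71.5, 38.7 and 23.7 CPM in CTL and 57.5, 46.7 and 73.0 CPM in Prdm1-CKO mice, was lowest in CTL replicate 3. The groups overlapped for each (edgeR unadjusted p = 0.805 for Itgam, 0.757 for Itgad, 0.275 for Vcam1 and 0.326 for Itgax). Without CTL replicate 2 the log2 fold changes of Itgam and Itgad turned from 0.11 and 0.17 to -0.17 and -0.18, and that of Vcam1 went from 0.43 to 0.16.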
